A study of Sus scrofa with 60 samples.

Results

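The MHC class II genes of the pig were followed in liver from the fetus to the adult. They were taken as every probe-set whose single gene symbol in the platform annotation begins with SLA-D or is CD74. The rule found 11 probe-sets of 8 genes among 23999 probe-sets of 6765 named genes. The genes were SLA-DRA, SLA-DRB1, SLA-DQA1, SLA-DQB1, SLA-DMA, SLA-DMB, SLA-DOA and CD74. SLA-DRB1 had 3 probe-sets and SLA-DMA had 2, and where a gene needed a single value the probe-set with the highest mean over all livers stood for it. Another 3 probe-sets name SLA-DRB1 together with a second gene and were left out.

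MHC class II molecules are pairs of an alpha and a beta chain that display peptides from endocytosed proteins to CD4 T cells. The SLA-DR and SLA-DQ genes encode the displaying chains, CD74 encodes the invariant chain that occupies the groove of newly made molecules, SLA-DMA and SLA-DMB encode the exchange factor that loads peptides, and SLA-DOA encodes a chain of its modulator. In liver these molecules are best known from Kupffer cells, dendritic cells and B cells, hepatocytes of a resting liver show little of them, and the transactivator CIITA governs the transcription of the whole family.

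All animals were German Landrace offspring of gilts that had been given the adequate protein (AP) diet in pregnancy, and the offspring of the high protein diet are not analysed here. One array was hybridised per liver, with 15 fetuses of 94 days post conceptionem (dpc), 15 newborns of 1 day post natum (dpn), 14 piglets of 28 dpn and 16 pigs of 188 dpn. The fetuses came from Caesarean sections in an experiment of their own, the born animals were sampled from the left liver lobe, and the piglets beyond the newborn stage had been cross-fostered, castrated if male and fasted overnight. Sib pairs from 8 litters were chosen per stage, light and heavy at the first 2 stages, but the labels tie no array to a litter, a sex or a weight. Sibs are therefore treated as independent animals, which makes the p-values too small where litter mates resemble each other.

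All signals below are log2(intensity + 16). A ± sign gives the standard deviation (SD) over animals behind a mean and the standard error (SE) behind a change, which is always the later stage less the earlier one. The highest mean of the Tag control probe-sets, which bind no pig transcript, lay between 5.73 and 6.29 by stage and was taken as background. The hepatocyte list was bright at every stage, with a summed intensity of 385640 to 761165 per array. Mean array correlations within a stage ran from 0.911 to 0.957, and no array was a copy of another. RNA integrity, read as the log2 excess of the 3′ over the 5′ actin probe-set, moved with stage, with means of 2.29, 1.76, 3.54 and 4.01 from the fetus to the oldest pigs.

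The clearest feature was a rise of the SLA-D genes between 1 dpn and 28 dpn (period II) with no corresponding rise of CD74. SLA-DQB1, SLA-DRA, SLA-DQA1 and SLA-DRB1 were 4.62-fold to 5.66-fold higher at 28 dpn, and their newborn and 28-day values did not overlap. The peptide-loading genes SLA-DMB and SLA-DMA rose less, and CD74 stayed within the newborn range in 14 of 14 piglets. CD74 was read by 1 probe-set only, and whether that probe-set follows every transcript of the gene was not tested. The 2 probe-sets of SLA-DMA differed in their change in period II, by 0.96 ± 0.26. Before birth the SLA-DR and SLA-DQ signals were closer to those of the newborn, and none of the 4 passed the test after 28 dpn. In bulk liver, more cells of a type and more RNA per cell cannot be told apart.

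**Figure D1:**
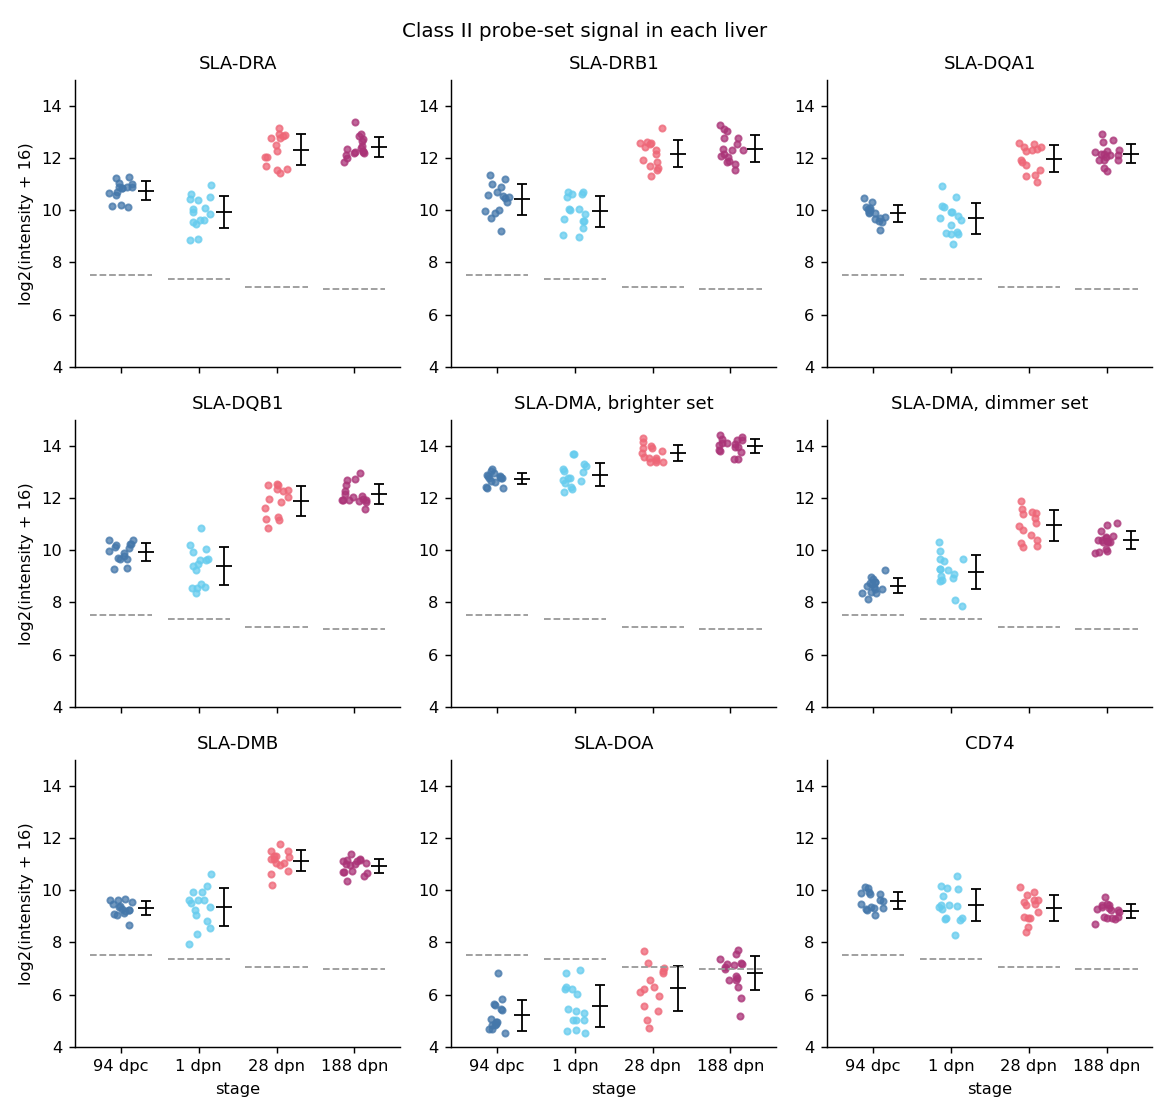
Signal of 9 class II probe-sets (vertical axis, log2(intensity + 16)) in each liver by stage (horizontal axis). Each point is 1 animal, black bars give the mean ± SD and dashed lines the mean array median. The 4 SLA-DR and SLA-DQ panels step up between 1 dpn and 28 dpn with no overlap, whereas the CD74 panel does not.

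SLA-DRA, the invariable alpha chain of SLA-DR, ran from 10.12 through a median of 10.86 to 11.27 at 94 dpc. In newborns it ran from 8.84 through 9.93 to 10.97. At 28 dpn the lowest, median and highest livers gave 11.44, 12.38 and 13.15, and at 188 dpn 11.85, 12.29 and 13.37. The newborn livers were thus the lowest group, 10 of 15 lay below every fetus, and both older groups lay above every younger animal. Means were 10.75 ± 0.36 (n = 15), 9.92 ± 0.61 (n = 15), 12.32 ± 0.59 (n = 14) and 12.43 ± 0.39 (n = 16) in stage order. SLA-DRB1, its polymorphic beta chain, ran from 9.18 through a median of 10.51 to 11.33 in fetuses and from 8.97 through 10.01 to 10.70 in newborns on its bright probe-set. It ran from 11.30 through 12.23 to 13.13 at 28 dpn and from 11.56 through 12.32 to 13.25 at 188 dpn. Newborns and older animals did not overlap, whereas the highest fetus just exceeded the lowest piglet of 28 dpn. Means were 10.42 ± 0.59, 9.95 ± 0.59, 12.16 ± 0.52 and 12.36 ± 0.51. The other 2 SLA-DRB1 probe-sets had stage means between 4.41 and 6.65, near background, and were above the array median in at most 1 animal of a stage.

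SLA-DQA1 and SLA-DQB1 encode the alpha and beta chain of the SLA-DQ molecule. SLA-DQA1 ran from 9.22 to 10.47 with a median of 9.90 at 94 dpc, and from 8.69 to 10.94 with a median of 9.70 at 1 dpn. At 28 dpn it lay between 11.09 and 12.58 with a median of 12.10, and at 188 dpn between 11.51 and 12.90 with a median of 12.13. Fetal and newborn ranges overlapped, and neither touched the ranges of the older animals. Means were 9.88 ± 0.32, 9.69 ± 0.61, 11.98 ± 0.50 and 12.16 ± 0.36. SLA-DQB1 ran from 9.28 to 10.40 (median 9.95) in fetuses and from 8.35 to 10.86 (median 9.45) in newborns. It ran from 10.87 to 12.52 (median 12.01) at 28 dpn and from 11.60 to 12.96 (median 12.00) at 188 dpn. The gap between the highest newborn and the lowest 28-day piglet was small, and the newborns had the widest spread. Means were 9.93 ± 0.36, 9.39 ± 0.73, 11.89 ± 0.57 and 12.14 ± 0.38.

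The exchange factor genes were less uniform. SLA-DMB had newborn values from 7.96 to 10.64 (median 9.52) and 28-day values from 10.21 to 11.78 (median 11.19). Of the 14 piglets, 12 lay above every newborn. Its means were 9.30 ± 0.27, 9.36 ± 0.72, 11.12 ± 0.40 and 10.93 ± 0.28 in stage order. SLA-DMA was read by a bright and a dimmer probe-set that did not run alike. The brighter averaged 12.75 ± 0.22, 12.90 ± 0.45, 13.72 ± 0.30 and 14.01 ± 0.27, and the dimmer 8.64 ± 0.28, 9.17 ± 0.64, 10.95 ± 0.58 and 10.39 ± 0.34. On the brighter 7 of 14 piglets of 28 dpn lay above every newborn, from 13.37 to 14.30 against 12.23 to 13.70. On the dimmer 11 of 14 did, from 10.14 to 11.89 against 7.87 to 10.30. The brighter probe-set was thus highest at 188 dpn and the dimmer one at 28 dpn. Within a stage the correlation of these 2 probe-sets over animals was between -0.33 and 0.31, so they cannot be read as repeats of one measurement.

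CD74 ran from 9.06 through a median of 9.60 to 10.11 at 94 dpc and from 8.30 through 9.40 to 10.56 at 1 dpn. It then ran from 8.41 through 9.45 to 10.11 at 28 dpn and from 8.72 through 9.24 to 9.75 at 188 dpn. The 4 ranges overlapped one another throughout, and the medians differed by less than the spread among newborns. SLA-DOA stood near background, with medians of 4.95, 5.38, 6.27 and 7.02 and means of 5.21 ± 0.60, 5.57 ± 0.80, 6.25 ± 0.86 and 6.82 ± 0.65, and was above the array median in 0 of 15, 0 of 15, 2 of 14 and 8 of 16 animals. In fetuses and newborns its mean lay below the highest Tag control, and no size of change against these stages is given.

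Period I, from 94 dpc to 1 dpn, asks what changed around birth. Of the 11 class II probe-sets 8 passed the filter on low values. In limma 1 was higher and 3 were lower, beside 23.9% of all 12771 probe-sets higher and 41.1% lower. SLA-DRA fell by 0.84 ± 0.17 (adjusted p = 0.00011), SLA-DQB1 fell by 0.54 ± 0.20 (adjusted p = 0.018) and SLA-DRB1 fell by 0.47 ± 0.20 (adjusted p = 0.043). The SLA-DRB1 call was lost under 5 of 10 other settings and that of SLA-DQB1 with median centring (adjusted p = 0.10). The dimmer SLA-DMA probe-set rose by 0.53 ± 0.17 (adjusted p = 0.0082), a call lost with the actin ratio as a covariate (adjusted p = 0.058). In this period 0 of the 8 separated the stages without overlap, against 4.46% of all probe-sets upward and 5.53% downward. SLA-DQA1, the brighter SLA-DMA probe-set, SLA-DMB and CD74 did not pass the test, with changes of -0.19 ± 0.17, 0.15 ± 0.13, 0.055 ± 0.19 and -0.17 ± 0.17. With the actin ratio as a covariate CD74 was lower by -0.52 (adjusted p = 0.033) and the brighter SLA-DMA probe-set higher by 0.37 (adjusted p = 0.045), and the latter was also higher with median centring, by 0.32 (adjusted p = 0.032). The direction of the all-gene background depended on scaling: 36.8% of calls were higher as deposited, 47.0% after quantile normalisation and 52.7% after median centring.

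In period II, from 1 dpn to 28 dpn, the span of suckling, 7 of the 8 class II probe-sets tested were higher and 0 lower, beside 28.5% of 12976 probe-sets higher and 39% lower. The share of calls that were higher over all probe-sets was 42.2% as deposited, 52.5% after quantile normalisation and 65.9% after median centring. SLA-DQB1 rose by 2.50 ± 0.23 (5.66-fold, adjusted p = 7.6e-11) and SLA-DRA by 2.40 ± 0.21 (5.27-fold, adjusted p = 3.1e-11). SLA-DQA1 rose by 2.29 ± 0.20 (4.90-fold, adjusted p = 2.0e-11) and SLA-DRB1 by 2.21 ± 0.20 (4.62-fold, adjusted p = 4.0e-11). These 4 separated newborns from 28-day piglets without overlap, as 4.59% of all probe-sets did upward and 6.83% downward. SLA-DMB rose by 1.77 ± 0.21 (3.40-fold), the dimmer SLA-DMA probe-set by 1.78 ± 0.22 (3.42-fold) and the brighter one by 0.82 ± 0.14 (1.76-fold). Only CD74 failed the test, with a change of -0.11 ± 0.20 and a 95% interval of -0.51 to 0.30. With the actin ratio as a covariate, which itself differs by stage, both SLA-DMA probe-sets lost their calls (adjusted p = 0.058 and 0.26), while SLA-DQB1, SLA-DRA, SLA-DQA1, SLA-DRB1 and SLA-DMB kept theirs under all 10 other settings.

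**Figure D2:**
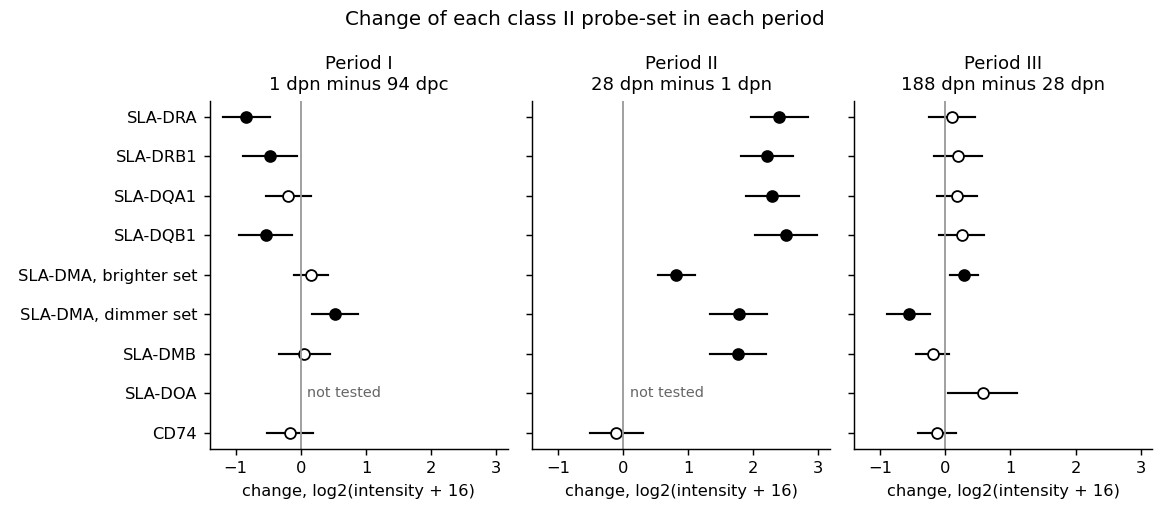
Change of each class II probe-set (horizontal axis, log2 scale, later minus earlier stage) in periods I, II and III, with 95% intervals from limma. Filled points passed the test at an adjusted p below 0.05 and open points did not. In period II 7 of 8 probe-sets lie to the right of 0 and CD74 lies on it.

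The difference between CD74 and the SLA-D genes was itself tested, by permuting stage labels over the log2 ratio of both genes in each liver. This test was made for 28 pairs of probe-sets in 3 periods, and the 84 comparisons, adjusted together, were chosen after the values had been seen. In period II the ratio of SLA-DRA to CD74 shifted by 2.51 ± 0.10, and the newborn and 28-day ratios did not overlap. The shifts against CD74 were 2.61 ± 0.10 for SLA-DQB1, 2.40 ± 0.10 for SLA-DQA1, 2.32 ± 0.14 for SLA-DRB1 and 1.87 ± 0.16 for SLA-DMB. For each of these the permutation p was 1e-05, the smallest that 100000 permutations can give, and the adjusted p was 4.9e-05. Between SLA-DQB1 and SLA-DRA the difference of change was 0.10 ± 0.09 (permutation, adjusted p = 0.35) and between SLA-DQA1 and SLA-DRB1 0.083 ± 0.12 (permutation, adjusted p = 0.57). SLA-DMB rose less than SLA-DRA by 0.63 ± 0.12 (permutation, adjusted p = 0.00010). In period I the ratio of SLA-DRA to CD74 fell by 0.67 ± 0.10 (permutation, adjusted p = 4.9e-05), and SLA-DQA1 relative to CD74 changed by only -0.026 ± 0.083 (permutation, adjusted p = 0.79). In that period SLA-DRA also fell relative to SLA-DQA1, by 0.64 ± 0.08, and no newborn ratio overlapped a fetal one.

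In period III, from 28 dpn to 188 dpn, weaning and the growth to slaughter age, 9 class II probe-sets were tested, 1 was higher and 1 lower, beside 15.5% of 12568 probe-sets higher and 24.1% lower. None of the 9 separated the stages without overlap, which 0.485% of all probe-sets did upward and 0.756% downward. The share of calls that were higher was 39.2% as deposited, 47.7% after quantile normalisation and 51.1% after median centring. Both calls were SLA-DMA: the brighter probe-set rose by 0.29 ± 0.11 (adjusted p = 0.027) and the dimmer one fell by 0.56 ± 0.16 (adjusted p = 0.0064). The call of the brighter one was lost after quantile normalisation (adjusted p = 0.47) and without a filter (adjusted p = 0.059). SLA-DRA, SLA-DRB1, SLA-DQA1 and SLA-DQB1 changed by 0.11 ± 0.17, 0.20 ± 0.18, 0.18 ± 0.15 and 0.25 ± 0.17. The upper ends of their 95% intervals were 0.46 to 0.59, which leaves room for a rise of that size. SLA-DOA gave 0.58 ± 0.26 (adjusted p = 0.076) and was tested in this period and in the fit over all stages, where the filter looks at each of them. SLA-DOA passed that filter through 188 dpn alone, which favoured a rise. It passed with median centring (0.64, adjusted p = 0.0496) and with the actin ratio as a covariate (0.80, adjusted p = 0.029). Periods I and II share the newborns and periods II and III share the piglets of 28 dpn, so these changes are not independent of each other. Relative to CD74 the displaying chains shifted upward in period III as well, SLA-DQB1 by 0.38 ± 0.10 (permutation, adjusted p = 0.0015), SLA-DQA1 by 0.31 ± 0.10 (permutation, adjusted p = 0.012), SLA-DRB1 by 0.33 ± 0.13 (permutation, adjusted p = 0.034) and SLA-DRA by 0.24 ± 0.09 (permutation, adjusted p = 0.023). SLA-DMB fell relative to SLA-DRA by 0.30 ± 0.12 (permutation, adjusted p = 0.021).

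One fit over all 4 stages put 8 of the 9 class II probe-sets tested past the F test, beside 93.2% of 13844 probe-sets. CD74 was the exception (adjusted p = 0.088). For SLA-DRA the order of stage means was 1 dpn, 94 dpc, 28 dpn and 188 dpn, with neighbours that differed except the last pair. For SLA-DQA1 neither the first nor the last pair of that order differed. From 94 dpc to 28 dpn 8 of the 9 were higher and 0 lower in limma, beside 27.3% of all probe-sets higher and 49.5% lower. From 94 dpc to 188 dpn 8 of the 9 were higher and 1 lower, against 26.9% and 53.1% of all probe-sets. The higher ones in both contrasts include SLA-DOA, whose fetal mean lay below the highest Tag control. SLA-DOA passed the filter through 188 dpn alone, its highest stage, which favoured its calls here and in the F test. The lower one was CD74, at -0.40 ± 0.16 (adjusted p = 0.017), while SLA-DRA was 1.67 ± 0.18 and SLA-DQB1 2.21 ± 0.19 higher at 188 dpn than in the fetus.

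Animals of one stage differed in a shared way across the class II genes. The median SD of the 9 class II probe-sets tested was 0.34, 0.61, 0.52 and 0.36 in stage order, beside 0.28, 0.39, 0.32 and 0.34 for all 13844 probe-sets. The spread was widest in newborns, where all 9 exceeded the median of all probe-sets. Newborn 2 was the lowest animal for SLA-DRA, SLA-DRB1, SLA-DQA1, SLA-DQB1 and SLA-DMB, and newborn 9 was the highest for SLA-DRA, SLA-DQA1, SLA-DQB1, SLA-DMB and CD74. At 94 dpc animal 7 was the highest for SLA-DRA, SLA-DRB1, SLA-DQA1 and SLA-DQB1, and its array was the least correlated with its stage. At 28 dpn animal 13 was the highest for SLA-DRA, SLA-DRB1, SLA-DMB and CD74, and its array was also the least correlated with its stage. The least correlated arrays at 1 dpn and 188 dpn were those of animals 6 and 8. At 188 dpn animal 2 was the highest for SLA-DRA, SLA-DQA1, SLA-DQB1 and CD74. The extremes were not always shared. For SLA-DRA, SLA-DRB1, SLA-DQA1, SLA-DQB1, SLA-DMB and CD74 the lowest values fell on 3, 2, 4 and 2 animals in stage order. The highest values of these 6 genes fell on 3, 2, 2 and 3 animals.

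Pearson and Spearman correlations over the animals of a stage were computed for the 28 pairs of the 8 genes, which gave 112 relations with permutation p-values adjusted together. Of these 57 passed by Pearson's r and 53 by Spearman's rho. Among SLA-DRA, SLA-DRB1, SLA-DQA1, SLA-DQB1, SLA-DMB and CD74, a set of 6 genes picked after the values had been seen, 12, 15, 15 and 13 of 15 pairs passed by r in stage order, and 12, 15, 15 and 10 by rho. Their median r was 0.84, 0.86, 0.86 and 0.68. Over all pairs of 5491 genes the median r was 0.00086 to 0.0091 and the 95th percentile 0.506 to 0.563. SLA-DQA1 with SLA-DQB1 in newborns gave the highest r of all, 0.98.

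SLA-DRA and SLA-DQB1 rose and fell together at each stage, with r = 0.90, 0.90, 0.96 and 0.88 in stage order. Spearman's rho was 0.82, 0.88, 0.93 and 0.75, and adjusted permutation p-values of r were 8e-05, 8e-05, 8e-05 and 0.00012. Without the 2 animals farthest from the SLA-DRA median r was 0.79, 0.84, 0.94 and 0.74. The 60 livers lay near a single band over all stages for this pair, although their ratio moved. The SLA-DQB1 to SLA-DRA ratio (log2) averaged -0.83 ± 0.16, -0.53 ± 0.31, -0.43 ± 0.17 and -0.28 ± 0.19 in stage order. Its shift in period I was 0.30 ± 0.09 (permutation, adjusted p = 0.0056).

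CD74 also followed SLA-DRA within a stage, although its stage means did not. The r was 0.76 (rho 0.69) at 94 dpc, 0.86 (rho 0.92) at 1 dpn and 0.95 (rho 0.95) at 28 dpn, with adjusted permutation p-values of 0.0024, 0.00017 and 8e-05 for r and 0.013, 0.00026 and 0.00014 for rho. At 188 dpn r was 0.68 (adjusted permutation p = 0.0080) but rho was 0.53 (adjusted permutation p = 0.067), and r without the 2 farthest animals was 0.44, so the relation there rests partly on those animals. Across the 5 pairs of CD74 with the other 5 of these genes, rho passed in 5, 5, 5 and 0 pairs in stage order. The SLA-DRA to CD74 ratio (log2) averaged 1.15 ± 0.24, 0.49 ± 0.32, 2.99 ± 0.19 and 3.23 ± 0.29 in stage order, so the livers of different stages lay apart. No correlation pooled over the stages is given for this reason.

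**Figure D3:**
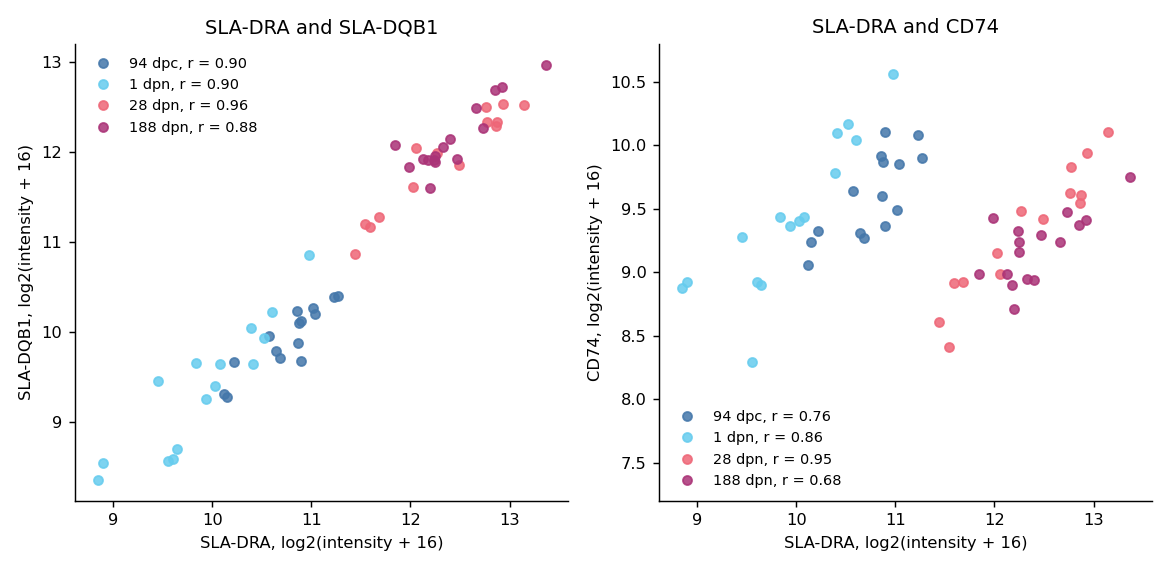
SLA-DQB1 (left) and CD74 (right) on the vertical axes against SLA-DRA on the horizontal axes, all as log2(intensity + 16), with 1 point per liver coloured by stage and Pearson's r within each stage. On the left the livers of all stages lie near 1 band. On the right the older livers lie to the right of the younger ones, and r within a stage is 0.68 to 0.95.

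SLA-DMA depended on the probe-set. By its brighter probe-set, which stands for the gene by the rule, 0 of its 7 pairs passed by r or rho at any stage, and its r with SLA-DRA was 0.091, 0.18, -0.12 and 0.032. By the dimmer one, an alternative added after seeing the data, 6 of 7 pairs passed by r at each stage and its r with SLA-DRA was 0.73, 0.90, 0.88 and 0.85. The dimmer probe-set also had the larger change in period II, by 0.96 ± 0.26 (permutation, adjusted p = 0.0023). SLA-DOA passed with SLA-DQA1 at 28 dpn (r = 0.63, rho = 0.67) and by r alone with SLA-DMB at 188 dpn (r = 0.55), and at the other stages in no pair. Its signal there was near background.

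**Figure D4:**
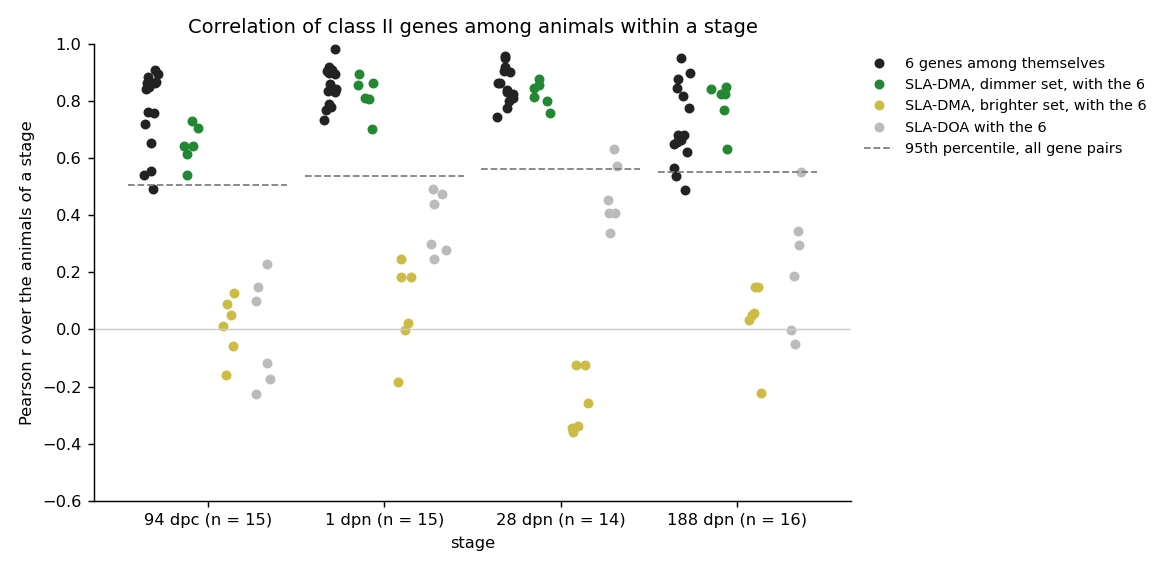
Pearson's r (vertical axis) between pairs of class II genes over the animals of each stage (horizontal axis). Points are pairs, coloured by the genes involved, and dashed lines mark the 95th percentile over all pairs of 5491 genes. The 6 genes and the dimmer SLA-DMA probe-set lie mostly above the lines, while the brighter SLA-DMA probe-set lies between -0.36 and 0.25 with these 6 genes.

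The genes most like the class II genes were ranked by their Pearson r, over 60 livers with stage means removed, with the mean of the 8 genes. This is a description over 5483 genes that share arrays and scaling, with a median r of 0.057 and a 95th percentile of 0.386. LOC106504372 came first with 0.86. RefSeq lists DRB1 and SLA-DRB among its synonyms and places it among the SLA-D genes, so its probes may share sequence with SLA-DRB1. It was followed by C1QC, a chain of complement C1q made by macrophages (0.68), FAM26F (0.68), LAPTM5, a lysosomal membrane protein of leukocytes (0.67), FCGR3A, an Fc receptor of macrophages and NK cells (0.66), ARHGDIB (0.66), CLIC1 (0.66), the lysosomal glycoprotein gene GRN (0.64), ITM2C (0.63) and IRF1, a transcription factor induced by interferon gamma (0.63). With SLA-DRA alone in place of the mean 8 of these 10 were shared. In period I FAM26F, IRF1 and GRN rose by 1.56 ± 0.16, 1.39 ± 0.12 and 0.62 ± 0.12, ITM2C fell by 1.25 ± 0.11 and LAPTM5 fell by 0.40 ± 0.11. In period II 10 of the 10 rose, beside 28.5% of all probe-sets. LOC106504372 rose by 2.26 ± 0.22, FCGR3A by 2.10 ± 0.14, LAPTM5 by 1.71 ± 0.15 and C1QC by 1.60 ± 0.12. In period III 9 of the 10 fell, by 0.30 to 1.62, beside 24.1% of all probe-sets. LOC106504372 gave 0.28 ± 0.19 in that period (limma, adjusted p = 0.25).

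Of the genes around class II presentation, CIITA was not tested in period I. It passed the filter of period II through 28 dpn alone, so its call of higher there (limma, adjusted p = 6.5e-06) was favoured in advance. Its mean was 7.42 at 28 dpn against 5.93 in newborns, where it lay below the highest Tag control, so no size of change is given. It fell by 0.81 ± 0.25 in period III (limma, adjusted p = 0.010). Its means at 28 dpn and 188 dpn were 7.42 and 6.61, against mean array medians of 7.04 and 6.98. The filter may therefore have favoured this fall. The stage-centred r of CIITA with the class II genes was 0.15. The other regulators tested in period II were RFXANK with no call, NFYB lower by -0.67 ± 0.13 and NFYC higher by 0.27 ± 0.09. Among the endosomal proteases and the thiol reductase 9 of 12 genes rose and 0 fell in period II. Over all probe-sets 28.5% were higher and 39% lower. The median change was 0.76 for these 12 genes and 0.16 for the 4 regulators. CTSS, the cathepsin that trims the invariant chain, rose by 1.41 ± 0.12 and fell by 0.62 ± 0.12 in period III. IFI30, the thiol reductase of the same compartment, fell by 1.37 ± 0.10 in period I and did not pass the test in period II (0.27 ± 0.15, adjusted p = 0.11). Over all probe-sets the median change was -0.15, -0.10 and -0.043 in the 3 periods.

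The class I presentation genes are given beside them, and the difference from the class II genes was not tested. In period I 1 of the 8 class II probe-sets tested rose and 3 fell, beside 23.9% of all probe-sets higher and 41.1% lower. Of 14 class I genes 9 rose and 2 fell in that period (median 0.91), with PSMB10, a subunit of the immunoproteasome, up by 2.11 ± 0.13 and PSMB8 by 1.44 ± 0.16. In period II 9 of 15 rose and 3 fell (median 0.62), led by the class I chains SLA-3 (2.09 ± 0.22) and SLA-6 (2.05 ± 0.17). In period III 9 of 15 fell and 0 rose (median -0.54). Over all probe-sets 28.5% were higher and 39% lower in period II, and 15.5% were higher and 24.1% lower in period III. Among interferon gamma signalling genes 4 of 11 rose and 4 fell in period I (median -0.015), with GBP1 up by 2.65 ± 0.33 and CXCL9 lower by -0.81 ± 0.27. In period II 5 of 11 rose and 1 fell in period II, led by IRF8 (2.24 ± 0.15) and the chemokine CXCL9 (2.15 ± 0.31). In period III 5 of 11 fell. IFNG itself was near background, with stage means of 5.41 to 5.80. Of the costimulation genes 3 of 6 rose and 1 fell in period II, with CD40 at 1.28 ± 0.23. CD83 had a mean of 8.43 against 6.23 in newborns, the latter below the highest Tag control. The newborn means of CD40 and CD83, 6.60 and 6.23, lay below the mean array median of 7.36. The filter may therefore have favoured calls of higher for these genes. Of the costimulation genes 4 of 6 fell in period III. Among trafficking genes 6 of 11 rose and 3 fell in period II.

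Markers of cells that carry class II molecules moved in the same period, and their part in the class II rise was not tested. Over all probe-sets 28.5% were higher and 39% lower in period II, and 15.5% were higher and 24.1% lower in period III. Of 9 pan-leukocyte genes tested 8 rose and 1 fell in period II (median 1.24). The summed intensity of the list went from 3898 to 6392 in newborns to 7315 to 16579 at 28 dpn. Of its defining genes CORO1A, LCP1 and LAPTM5 rose, whereas PTPRC was at 5.55 ± 0.78 at 28 dpn, below the highest Tag control. In period III 7 of 9 pan-leukocyte genes fell. The macrophage and Kupffer cell list had 9 of 14 genes higher and 1 lower already in period I (median 0.51), beside 23.9% and 41.1% of all probe-sets. It had 9 of 15 higher and 3 lower in period II and 9 lower in period III, with sums of 19862 to 28648 in fetuses, 32111 to 46584 in newborns, 54076 to 84124 at 28 dpn and 47089 to 64222 at 188 dpn. AIF1 rose by 1.45 ± 0.13 in period II while CD163 fell by 0.48 ± 0.15 and CD14 gave 0.019 ± 0.11. MARCO, also a defining gene of this list, had means of 8.62 ± 0.39, 7.75 ± 0.55, 8.09 ± 0.58 and 6.00 ± 0.82 in stage order. The last of these was near background.

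Among dendritic cell genes 5 of 6 rose in period II, beside 28.5% of all probe-sets higher and 39% lower. The sums of the list were 1525 to 2720 in newborns and 3544 to 7501 at 28 dpn. XCR1, the receptor that marks cross-presenting dendritic cells, did not pass the test (-0.089 ± 0.14). The list had 10 genes with a probe-set, of which these 6 were tested. FCER1G is also in the macrophage list and IRF8 in the interferon gamma list, so the lists are not separate evidence. The T and NK cell list had 8 of 9 genes higher in period II, with sums of 921 to 2022 and 1953 to 7055. In newborns 12 of its 18 genes lay at or below the highest Tag control. Only 2 of its genes were tested in period I, so most entered period II through 28 dpn alone, which favoured calls of higher. For B and plasma cells 5 of 28 listed genes had a probe-set and 3 were tested. These 3 rose in period II from newborn means below the highest Tag control, so no size of change is given. They passed the filter through 28 dpn alone, so their calls of higher were favoured in advance. JCHAIN had means of 6.25 in newborns and 8.75 at 28 dpn. In period III 2 rose again and BLNK fell by 0.98 ± 0.22, beside 15.5% of all probe-sets higher and 24.1% lower. The mean of BLNK was 7.45 at 28 dpn and 6.47 at 188 dpn, against mean array medians of 7.04 and 6.98. The filter may therefore have favoured its fall. Of the defining B cell markers CD79B and TNFRSF17 stayed near background at all stages.

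**Figure D5:**
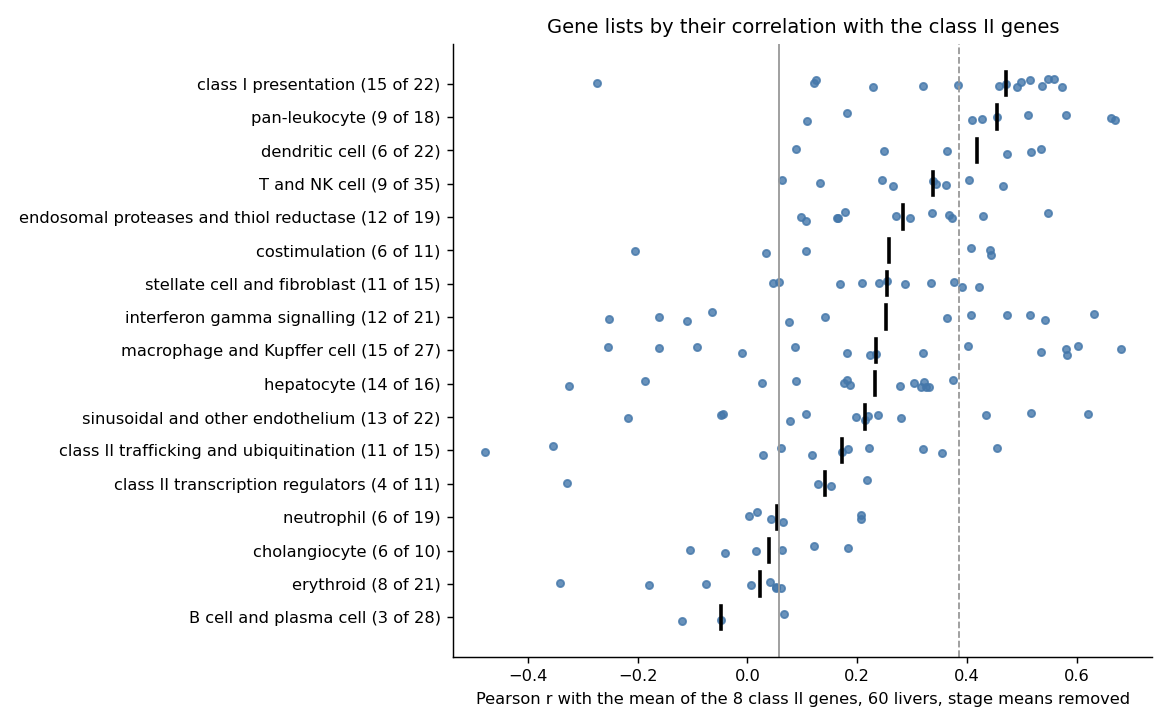
Pearson's r with the mean of the 8 class II genes over 60 livers after removal of stage means (horizontal axis), with 1 point per gene and a black bar at the median of each list. The brackets give genes ranked of genes listed, and grey lines mark the median (solid) and 95th percentile (dashed) of 5483 genes. Class I presentation and pan-leukocyte genes lie farthest to the right and B cell genes to the left.

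Within stages the lists followed the class II genes to different degrees. The median stage-centred r was 0.47 for 15 class I presentation genes, 0.45 for 9 pan-leukocyte genes, 0.42 for 6 dendritic cell genes and 0.34 for 9 T and NK cell genes. The macrophage list had a median of 0.23 and was divided, with C1QC, AIF1 (0.60) and TYROBP (0.58) at the top and MRC1 (-0.26), CD5L (-0.16) and CD163 (-0.092) below 0. The hepatocyte list gave 0.23, the endothelial list 0.22 with RAMP2 (0.62) and CDH5 (0.52) at its top, and the stellate cell list 0.25. The 3 B cell genes ranked gave -0.049, the erythroid list 0.024, the cholangiocyte list 0.039 and the neutrophil list 0.053. Among proteases IFI30 (0.55) and CST3 (0.43) were highest, and among class I genes TAPBP (0.57), TAP1 (0.56) and PSME2 (0.55).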

How the data were processed

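Hepatic mRNA of 60 AP offspring was measured on Affymetrix GeneChip Porcine Genome arrays. The authors deposited 1 linear intensity per probe-set and array, scaled so that the mean trimmed by 2% at each end was about 500, with GCOS 1.1.1 according to the submitters' notes on processing. These are not the GCRMA values of the study's own tests, and its mixed model could not be fitted because sex, mother and weight are not in the labels. Here log2(intensity + 16) was used. The 124 control probe-sets were left out, and a probe-set was tested when, in 1 or more of the stages compared, 50% or more of the animals had it above the array median. A probe-set that passed through 1 stage only was thereby favoured to be called higher at that stage. Symbols came from the platform annotation, which gives 1 gene for 10069 probe-sets, several for 198 and none for 13732. The 8 class II gene IDs were found in RefSeq Sscrofa11.1, used for names and gene order only.

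Stages were compared with limma 3.58.1 in R 4.3.3, two-sided, with Benjamini-Hochberg adjustment over all probe-sets tested. The fit and the permutation test were tested on simulated data. Correlations used Python 3.11.15 with 100000 permutations, two-sided. The members and gene lists were chosen with earlier results of these data known. Every class II probe-set is named. From the regulator, protease, class I, interferon and costimulation lists up to 4 genes per period with the largest change in the direction of most calls were eligible, and up to 2 that went the opposite way, from cell type lists the first 4 markers measured and the 3 of highest r, and the 10 genes most like the class II genes. IFNG, CST3, TAPBP, PSME2, MRC1 and CD5L were added after their values were seen. The number of arrays limits the precision.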

Additional observations from a re-analysis of the deposited data

How the results depend on the processing

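Other pseudocounts (1 and 64), quantile normalisation, median centring, no filter, a filter on every stage compared, the actin ratio as a covariate, 1 fit over 60 arrays, array weights and leaving out the least correlated array of each stage were tried. Of the counts of class II probe-sets, pairs or shared genes recomputed this way 92 lay within 1.5 times the reported count and 8 did not. Of the values of single probe-sets and pairs 251 kept their direction and side of the threshold, 11 lost the call, 5 gained one and 5 changed sign. Median centring moved the median change of all probe-sets to 0.023 in period I and 0.22 in period II. With it 2 class II probe-sets were higher and 1 lower in period I, and 2 were higher in period III. With the actin ratio as a covariate 2 were higher in period III, and with quantile normalisation or no filter 0 were. Without a filter 1 class II probe-set was lower in period II, a dim one of SLA-DRB1 near background. By the dimmer SLA-DMA probe-set, chosen after seeing the data, 20 pairs passed at 94 dpc. Signs turned for 5 changes that had not passed the test: in period I SLA-DMB to -0.075 with the actin ratio, the brighter SLA-DMA probe-set to -0.028 after quantile normalisation and CD74 to 0.0026 after median centring, and in period II CD74 to 0.21 after median centring and 0.091 with the actin ratio. The causes were not tested. SLA-DRA and CD74 kept an r of 0.66 to 0.96 within stages under 6 alternatives.

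No paired analysis was possible because the labels give no litter and the stages share no replicate numbers. RNA integrity, fasting, experiment and stage cannot be told apart where they changed together, and SLA-DOA in fetuses and newborns and the dimmest SLA-DRB1 probe-set at all stages lay below the highest Tag control. Each mean rests on 14 to 16 livers.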

Other observations

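Of the 3 probe-sets that name SLA-DRB1 beside LOC106504372, 2 had a larger SD at every stage than any class II probe-set described. One of these had means of 9.06 ± 1.21, 8.88 ± 1.21, 10.50 ± 1.44 and 10.58 ± 1.84 in stage order and ran from 7.52 to 12.87 at 188 dpn. Another had means of 7.61 ± 1.11, 7.44 ± 1.17, 9.50 ± 1.45 and 9.93 ± 1.39, and its r with SLA-DRA within a stage was -0.24, 0.58, -0.053 and -0.20. The third had means of 4.62 to 4.68 and SDs of 0.44 to 0.53.

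In the RefSeq gene order PSMB8 and TAP1, which serve class I presentation, lie among the SLA-D genes. PSMB8 rose by 1.44 ± 0.16 in period I, gave 0.070 ± 0.26 in period II and fell by 1.02 ± 0.25 in period III. TAP1 rose by 1.27 ± 0.24, rose by 1.03 ± 0.30 and fell by 0.97 ± 0.20. The order of changes of these neighbours thus differed from that of SLA-DRA, although the difference was not tested.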
